A study of Mus musculus with 40 samples.

Results

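The 6 chemokine genes Ccl3, Ccl4, Ccl5, Ccl22, Cxcl9 and Cxcl10 were followed through 28 RNA-seq libraries made from sorted follicular B cells of the mouse. They were chosen by name as ligands that B cells can secrete, and each was found as 1 row among the 24732 genes of every deposited file. All libraries came from C57BL/6 mice with the MD4 BCR-tg transgene, which gives most B cells the same receptor, against hen egg lysozyme (HEL). Ikaros, a zinc finger transcription factor encoded by Ikzf1, was removed with Cd23-cre, a recombinase driven by the Cd23 promoter, which is active in maturing B cells. The age of the mice is not given in the sources used here.

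The naive cells without an intact Ikzf1 allele were Cd23-cre Ikzf1(fl/-), with 2 libraries, and their controls were Cd23-cre Ikzf1(fl/+), also with 2 libraries. These 4 libraries have numbers that begin with 36. A further 3 naive libraries, with numbers that begin with 57, served as controls for the antigen-exposed cells: 2 were Ikzf1(fl/+) without Cre and 1 was Cd23-cre Ikzf1(fl/+). Anergic cells came from mice with a second transgene, ML5-tg, which supplies soluble HEL as a self antigen. The 3 anergic libraries were Ikzf1(fl/fl) without Cre, Ikzf1(fl/+) without Cre and Cd23-Cre Ikzf1(fl/+), so that each kept an intact allele. HEL-exposed cells were taken 1 day after intravenous HEL and were Ikzf1(fl/fl) without Cre or Cd23-cre Ikzf1(fl/fl), with 5 libraries each. The CpG cells were stimulated for 1 day in vitro with CpG DNA, a ligand of Toll-like receptor 9, with 4 libraries of Cd23-cre Ikzf1(fl/-) and, as controls, 4 of Cd23-cre Ikzf1(fl/+) cells. The CpG and naive controls carry Cre and 1 intact allele, whereas the HEL controls carry no Cre, so Cre and loss of Ikaros cannot be told apart in the HEL-exposed cells.

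Chemokines are small secreted proteins that direct the movement of leukocytes along gradients. Ccl3 and Ccl4 are closely related neighbours in the genome, and activated B cells secrete them to attract T cells and other leukocytes. Ccl5 is best known from memory T and NK cells and from antiviral responses. Ccl22 binds Ccr4 on helper and regulatory T cells and is abundant in dendritic cells, while Cxcl9 and Cxcl10 bind Cxcr3 and are classic products of interferon-stimulated cells. In B cells, signals from the antigen receptor and from Toll-like receptors reach such genes through NF-kB, AP-1 and related factors.

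The bases before the start of 3 of these genes are shown because they differ in the motif letters they hold. The RefSeq promoter table for build GRCm38.p6, which is not the mm9 build of the deposited values, held 4 of the 6 genes, and the 250 bases before each start were searched on both strands. The motifs were NF-kB (GGG and CC with any 5 bases between), the interferon-stimulated response element (GAAA and GAAA with any 2 bases between), AP-1 (TGANTCA, with N for any base) and the Ikaros core (TGGGAA). Capitals mark a match to any of the 4 motifs, and overlapping matches run together. Ccl3 lies on the minus strand at chr11:83649379-83649628, Ccl22 on the plus strand at chr8:94745434-94745683 and Cxcl10 on the minus strand at chr5:92348890-92349139.
Ccl3: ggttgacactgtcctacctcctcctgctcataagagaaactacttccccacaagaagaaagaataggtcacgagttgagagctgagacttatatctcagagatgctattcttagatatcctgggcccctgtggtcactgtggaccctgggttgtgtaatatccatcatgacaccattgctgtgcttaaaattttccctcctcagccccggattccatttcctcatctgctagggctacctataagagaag
Ccl22: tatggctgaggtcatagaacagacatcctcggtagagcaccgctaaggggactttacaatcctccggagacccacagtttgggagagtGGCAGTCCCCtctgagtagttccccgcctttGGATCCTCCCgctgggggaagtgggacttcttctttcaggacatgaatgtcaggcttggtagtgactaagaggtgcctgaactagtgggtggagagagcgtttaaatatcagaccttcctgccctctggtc
Cxcl10: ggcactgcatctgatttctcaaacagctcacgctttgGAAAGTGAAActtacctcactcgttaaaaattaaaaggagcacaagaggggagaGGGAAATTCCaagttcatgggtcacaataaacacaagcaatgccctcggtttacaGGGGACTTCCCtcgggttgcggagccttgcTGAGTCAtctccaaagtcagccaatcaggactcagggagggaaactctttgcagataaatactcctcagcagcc
The Ccl3 window held none of the 4 motifs. The Ccl22 window held 2 NF-kB matches, at 162 to 153 and 131 to 122 bases before the start, both on the minus strand. The Cxcl10 window held an interferon element at 213 to 204 bases before the start, GAAAGTGAAA, and an AP-1 match at 74 to 68, TGAGTCA. It also held an NF-kB match at 159 to 150 and 2 that overlap between 104 and 94. The window of Cxcl9 (chr5:92328080-92328329, minus strand) held 2 overlapping NF-kB matches between 130 and 120. Among all 32851 windows of this length, 45.8% held the NF-kB letters, 2.98% the interferon element, 6.75% the AP-1 letters and 21.6% the Ikaros core. A match here describes letters only, and NF-kB matches of this loose form are common.

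Library depth ran from 12126675 to 25424303 reads, recovered from the steps of the deposited TPM values. TPM is a level corrected for transcript length, so levels of different genes can be compared. The targeted gene was lower wherever the labels say it was deleted: Ikzf1 stood at 57.3 to 65.3 TPM in naive Cre fl/- cells against 120 to 136 in their controls. It stood at 60.3 to 79.3 in HEL-exposed Cre fl/fl cells against 195 to 261, and at 31.7 to 39.5 in CpG Cre fl/- cells against 135 to 172. The B cell markers Cd79a, Cd79b, Ms4a1, Pax5, Fcer2a, Cr2 and Cd22 were above 0 in every library, the lowest single value being 1.20 TPM. These are sorted populations, and a change in the number of cells that express a gene cannot be told apart from a change in the amount per cell. Nothing in the labels says that replicates are separate animals, so the tests measure the spread between these libraries.

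Ccl3 was the most abundant of the 6 chemokine mRNAs in every CpG library and nearly absent elsewhere. In CpG-stimulated Cre fl/- cells its level was 1785, 1202, 1697 and 1105 TPM. In the CpG Cre fl/+ controls it was 744, 545, 478 and 365 TPM. The lowest library without Ikaros lay above the highest control, so the groups did not overlap. The difference was 1.46 ± 0.23 on the log2(TPM + 1) scale (limma, adjusted p = 0.0038, estimate ± standard error), and all 4 libraries without Ikaros showed it. The exact two-sided permutation test of this single gene gave p = 0.0286, the smallest that 4 against 4 libraries allow, and 0.257 after adjustment over the 36 such tests made on the chemokines.

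The values behind Ccl3 in CpG-stimulated cells rest on many reads, from 2208 to 11918 per library. Outside the CpG group no library held more than 20 Ccl3 reads. In the 4 naive libraries of the first series Ccl3 was 0.367 and 2.53 TPM in Cre fl/- cells and 0.301 and 0 TPM in Cre fl/+ cells. The naive controls of the later series were at 0, 0 and 0.156 TPM, with at most 1 read. CpG cells were sequenced in another library series than naive cells and cultured in vitro, so stimulation, culture and series cannot be told apart in this contrast, and it was not tested.

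In antigen-exposed cells Ccl3 stayed low. Anergic cells were at 0.709, 1.31 and 1.15 TPM, all above the naive controls. HEL-exposed fl/fl cells were at 1.28, 0.468, 0.460, 0.538 and 0.785 TPM, and HEL-exposed Cre fl/fl cells at 1.58, 0.317, 0.748, 0.607 and 1.54 TPM. The HEL groups overlapped, with a difference of 0.17 (exact permutation p = 0.452). Ccl3 did not pass the level filter in the comparisons with naive cells, which needed 1 TPM in a number of libraries equal to the smaller group. Without that filter limma called it higher in anergic cells than in naive controls, by 0.96 (adjusted p = 0.0174), where 3.44% of all genes were called. It was called in HEL-exposed fl/fl cells too, by 0.68 (adjusted p = 0.0106), where 29.5% of all genes were called. These values rest on at most 11 reads per library.

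**Figure D1:**
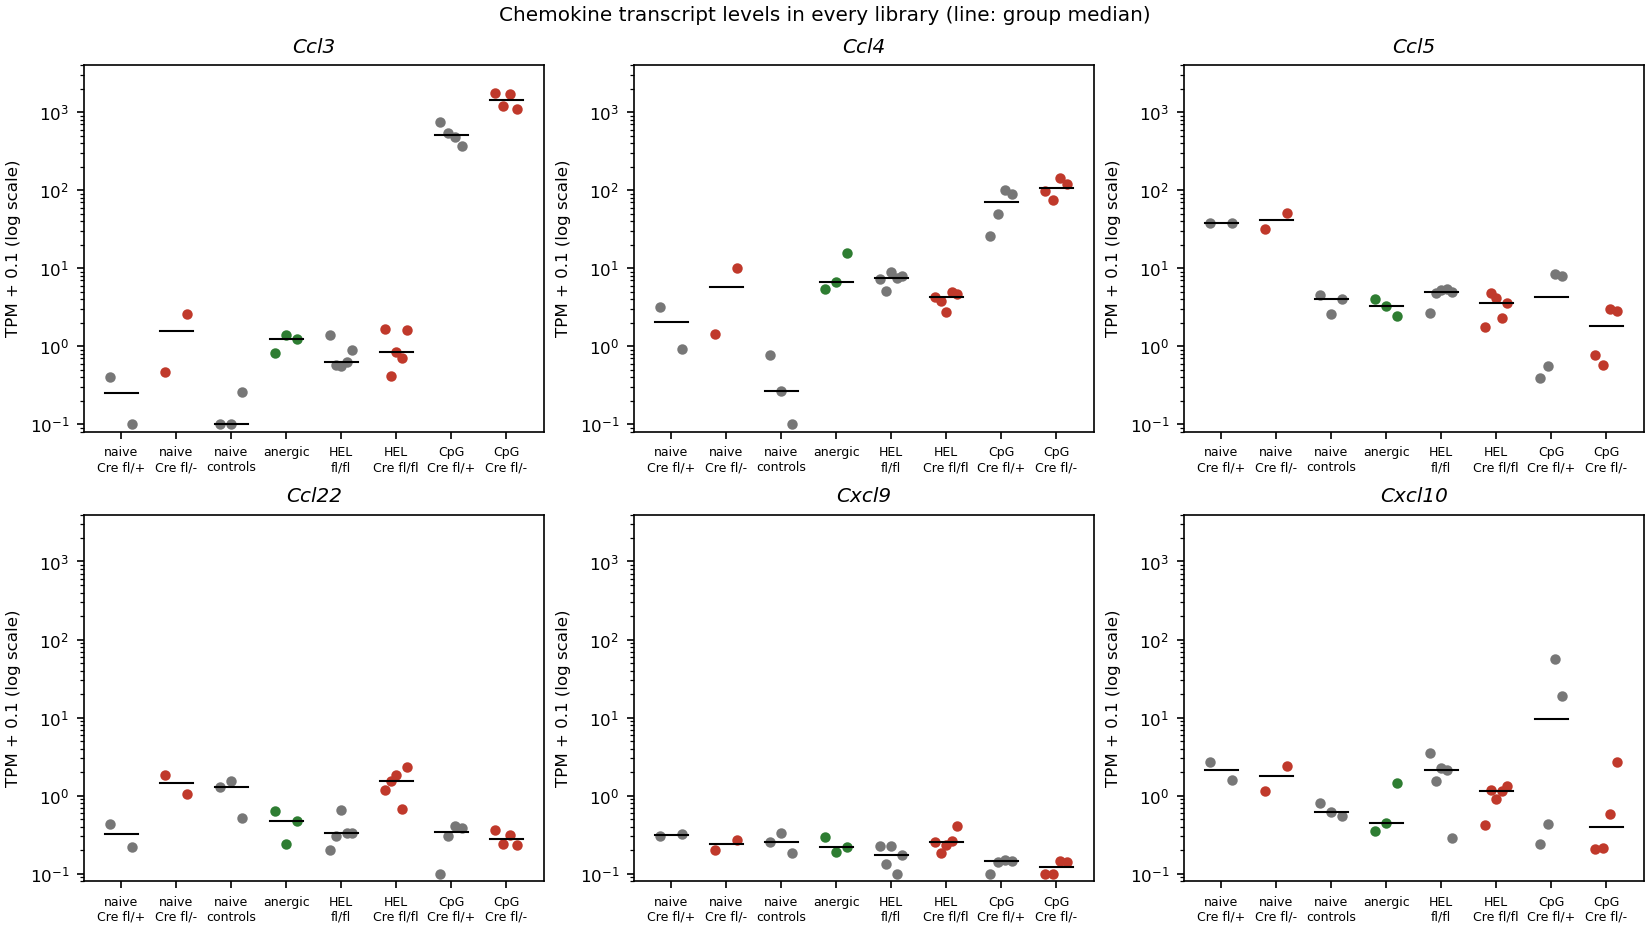
Level of each chemokine gene in every library, as TPM + 0.1 on a logarithmic axis, by group; points are libraries, lines are group medians, red marks Cre fl/- or Cre fl/fl cells and green the anergic cells. Ccl3 reaches 365 TPM or more only in the CpG libraries, Ccl5 stands highest in the first naive series, and Cxcl9 stays below 1 TPM in all 28 libraries.

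Ccl4, the neighbour and close relative of Ccl3, was the chemokine called after antigen exposure. In the naive controls of the later series it was at 0.679, 0.170 and 0 TPM. In anergic cells it was at 5.31, 6.64 and 15.7 TPM, and in HEL-exposed fl/fl cells at 7.25, 5.04, 8.80, 7.47 and 7.83 TPM. Every antigen-exposed library lay above every naive control. Ccl4 was higher in anergic than in naive cells by 2.89 ± 0.36 (limma, adjusted p = 0.00296) and higher in HEL-exposed fl/fl than in naive cells by 2.71 ± 0.19 (adjusted p = 7.4e-06). The 2 comparisons share the naive controls. In both, Ccl4 passed the level filter only through antigen-exposed libraries. Without the filter it was also called (limma, adjusted p = 0.0195 and 1.6e-04), where 3.44% and 29.5% of all genes were called. The exact permutation tests gave p = 0.1 and p = 0.0357, the smallest these sample numbers allow. The naive controls held 0 to 4 Ccl4 reads, and a pseudocount of 1 understates such a fold: with 0.1 in its place the differences were 4.91 and 4.72.

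Among the chemokines tested, Ccl4 was the 1 called of 2 in the anergic comparison, where 7.37% of all tested genes were called, and the 1 called of 3 in the HEL comparison, where 48% were called. In the HEL comparison the call on its own is therefore common among all genes. Anergic and HEL-exposed fl/fl cells did not differ detectably in Ccl4 (0.18 ± 0.27, adjusted p = 0.605), and the sign of that difference turned with scaling of the libraries. None of the 4 chemokines tested was called between anergic and HEL-exposed cells, a comparison that called 42.2% of all genes.

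In HEL-exposed cells without Ikaros, Ccl4 fell; this comparison shares the fl/fl libraries with the one above. The Cre fl/fl libraries were at 4.19, 3.67, 2.69, 4.88 and 4.53 TPM, from 18 to 47 reads each. The highest of them lay just below the lowest fl/fl library at 5.04 TPM, so the groups did not overlap. The difference was -0.73 ± 0.14 (limma, adjusted p = 0.00149), and the exact permutation test gave p = 0.00794, the smallest for 5 against 5. Ccl4 was the only one called of the 3 chemokines tested here, beside 36.9% of all tested genes.

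In CpG-stimulated cells the same gene pointed the other way. Ccl4 stood at 97.4, 74.3, 143 and 119 TPM in Cre fl/- cells and at 25.9, 50.04, 99.5 and 89.9 TPM in Cre fl/+ cells, and the groups overlapped. The difference of 0.84 ± 0.40 did not pass the test (limma, adjusted p = 0.191). Ccl3 was then the only one called of 3 chemokines tested in CpG cells, beside 14.9% of all genes. The library numbers form 2 consecutive runs of 4, each with both genotypes, and Ccl4 was higher in the second run within each genotype. With the run as a term in the model Ccl4 passed with the same difference (adjusted p = 0.0299), which made 2 of 3 chemokines called, beside 21.4% of all genes. Within the first run, where 2.61% of all genes were called, Ccl4 differed by 1.22 (adjusted p = 0.126). Within the second, where 22.8% were called, it differed by 0.46 (adjusted p = 0.0267). Ccl3 differed by 1.20 (adjusted p = 0.0675) and 1.71 (adjusted p = 0.00379) in the same runs. The fits within single runs were chosen after seeing the data.

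The effect of Ikaros loss differed between CpG-stimulated and HEL-exposed cells for 3 of the 5 chemokines tested, where 22.4% of all genes were called. The CpG difference exceeded the HEL difference by 1.57 ± 0.42 for Ccl4 (limma, adjusted p = 0.0118) and by 1.28 ± 0.32 for Ccl3 (adjusted p = 0.00766). For Ccl22 the CpG difference minus the HEL difference was -0.90 ± 0.23 (adjusted p = 0.00914). Ccl22 passed the filter only through HEL-exposed Cre fl/fl libraries, and its CpG values rest on at most 4 reads. Its value thus restates the HEL difference beside CpG levels near the floor. Ccl3 could pass the filter only with the CpG libraries, and its HEL values rest on 3 to 14 reads. The Ccl3 value thus largely restates the CpG difference. The controls of the 2 effects differ in Cre and in allele number, and the CpG cells were cultured, so this is a difference between the experiments as run. All 3 calls were lost with voom on the recovered reads, where the estimates were 1.62 for Ccl4, 1.13 for Ccl3 and -2.11 for Ccl22, and Ccl3 was also lost with a pseudocount of 0.1 (1.16).

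**Figure D2:**
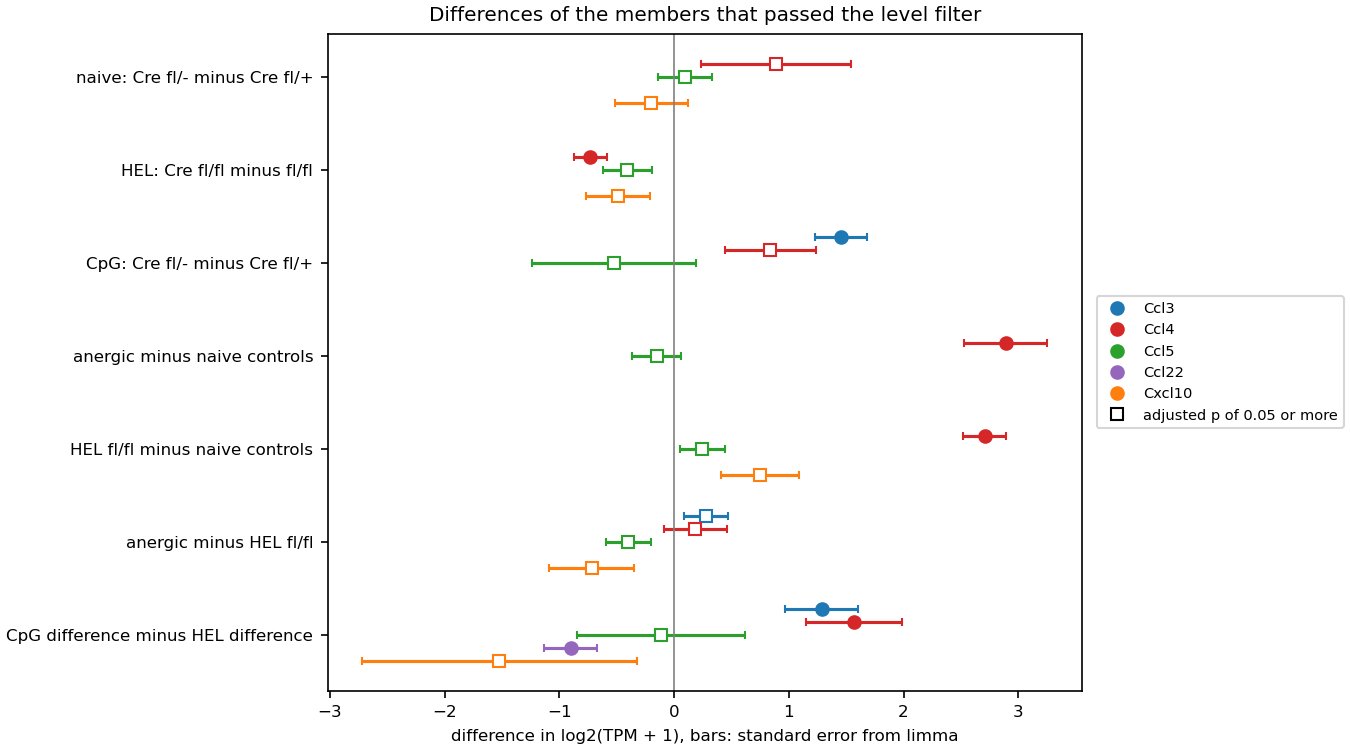
Differences in log2(TPM + 1) for the chemokines that passed the level filter in each of the 7 comparisons, with standard errors from limma; filled circles had an adjusted p under 0.05 and open squares did not. Ccl4 lies at 2.89 and 2.71 in the comparisons with naive cells, at -0.73 for Ikaros loss in HEL-exposed cells, and Ccl3 at 1.46 for Ikaros loss in CpG cells.

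The order of Ccl3 and Ccl4 differed between the CpG libraries and the other libraries that held both. Stimulation, culture and library series cannot be told apart in this contrast, and it was not tested. In CpG libraries Ccl3 exceeded Ccl4, by 4.06 to 28.8 times in Cre fl/+ cells and by 9.29 to 18.3 times in Cre fl/- cells. In all other libraries with both genes above 0 the order was the reverse, also without antigen. In the first naive series Ccl4 exceeded Ccl3 by 3.59 to 3.89 times in Cre fl/- cells and by 10.2 times in 1 Cre fl/+ library. Ccl4 exceeded Ccl3 by 5.09 to 13.6 times in anergic cells and by 5.66 to 19.2 times in HEL-exposed fl/fl cells. In HEL-exposed Cre fl/fl cells the factor was 2.65 to 11.6. Loss of Ikaros did not move the log2 ratio of Ccl3 to Ccl4 detectably in CpG cells (0.60, exact permutation p = 0.4) or in HEL-exposed cells (1.19, p = 0.0635 by the same exact test). The antigen-exposed ratios rest on 3 to 14 Ccl3 reads per library.

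**Figure D3:**
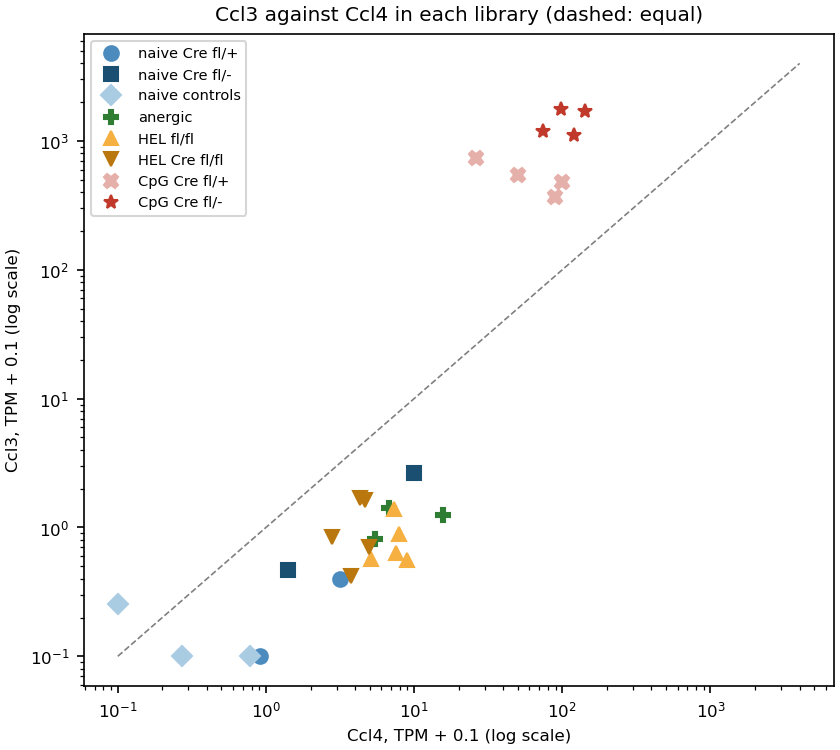
Ccl3 against Ccl4 in each of the 28 libraries, as TPM + 0.1 on logarithmic axes, with symbols for the groups and a dashed line where both are equal. The 8 CpG libraries lie above the line, and the other libraries with both genes above 0 lie below it.

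Ccl5 was called in none of the 7 comparisons over all libraries. In the first naive series it was at 31.7 and 50.5 TPM in Cre fl/- cells and at 37.6 and 37.5 TPM in Cre fl/+ cells. In the later naive controls it was at 4.43, 2.53 and 3.95 TPM, and in anergic cells at 3.96, 3.16 and 2.36 TPM. The 2 naive series did not overlap. Both hold Cre fl/+ cells, 1 library of them in the later series, and this gap was not tested. Loss of Ikaros in naive cells changed Ccl5 by 0.09 ± 0.24 (limma, adjusted p = 0.912).

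Markers of other cells moved with Ccl5. The summed TPM of 15 T and NK cell markers was 39.4 to 62.6 in the first naive series and 14.5 to 19.6 in the later one. All 15 markers were above 0 in the first series against 8 of 15 above 0 in any library of the later one, where Prf1, at 13.4 to 18.2 TPM, made up most of the sum. The granzyme Gzma was at 8.20 to 20.1 TPM in the first series and at 0 in the later naive, anergic and HEL-exposed libraries. Nkg7, a cytotoxic granule protein, was at 4.52 to 9.36 TPM in the first series and at 0 in the later naive controls, and Cd3e was at 0.50 to 3.97 and at 0 to 0.16 TPM. Neutrophil markers summed to 21.6 to 87.1 TPM in the first naive series and to at most 0.498 TPM in the later one. Their part in the level of Ccl5 was not tested.

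In HEL-exposed cells Ccl5 was at 2.60, 4.70, 5.13, 5.28 and 4.87 TPM in fl/fl cells and at 1.68, 4.72, 4.08, 2.19 and 3.54 TPM in Cre fl/fl cells. The groups overlapped and the difference of -0.41 ± 0.21 was not called (limma, adjusted p = 0.148). The first fl/fl library stood apart at 2.60 TPM, and without it the difference was -0.55 and was called (adjusted p = 0.0441). The comparison of anergic with HEL-exposed fl/fl cells turned on the same library, with -0.40 (adjusted p = 0.121) for all libraries and -0.55 (adjusted p = 0.0213) without it.

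Among the CpG libraries Ccl5 and Cxcl10 divided by library run rather than by genotype alone. Ccl5 was at 0.669 and 0.480 TPM in the Cre fl/- libraries and 0.290 and 0.464 TPM in the Cre fl/+ libraries of the first run. In the second run it was at 2.95 and 2.77 TPM in Cre fl/- and at 8.40 and 7.87 TPM in Cre fl/+ cells. Every library of the second run lay above every library of the first. Over both runs the Ikaros difference was -0.52 ± 0.72 (limma, adjusted p = 0.661). Within the second run it was -1.24 (limma, adjusted p = 0.00236), in a fit chosen after seeing the data that called 22.8% of all genes.

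Cxcl10, a Cxcr3 ligand and interferon target, was at 0.108 and 0.116 TPM in the Cre fl/- and 0.140 and 0.336 TPM in the Cre fl/+ libraries of the first CpG run. In the second run it was at 0.475 and 2.56 TPM in Cre fl/- cells and at 56.1 and 18.6 TPM in Cre fl/+ cells. The 2 Cre fl/+ libraries of the second run were thus far above all other libraries of the study. Cxcl10 did not pass the level filter over all CpG libraries, where it differed by -2.01 (exact permutation p = 0.286). Within the second run it passed and differed by -3.87 (limma, adjusted p = 0.00598), from 2 libraries against 2, beside 22.8% of all genes called. That fit was chosen after seeing the data. Cxcl10 could not have passed its filter without the Cre fl/+ libraries, where it is high. The difference of -3.87 therefore cannot serve as a test.

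The interferon genes moved with Cxcl10 and Ccl5 across these libraries. The mean log2(TPM + 1) of 28 interferon pathway and interferon-stimulated genes was 2.96 and 3.15 in Cre fl/- and 2.95 and 4.60 in Cre fl/+ libraries of the first run. In the second run it was 4.68 and 5.36 in Cre fl/- and 6.41 and 6.11 in Cre fl/+ libraries. Neutrophil markers summed to at most 0.206 TPM in the first run and to 6.95 to 122 TPM in the second, in both genotypes. The sum of T and NK cell markers was 2.17 to 3.72 TPM in the first run, 2.68 in each Cre fl/- library of the second, and 8.18 and 7.40 TPM in its Cre fl/+ libraries. The part of these cells in the levels of Cxcl10 and Ccl5 was not tested.

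**Figure D4:**
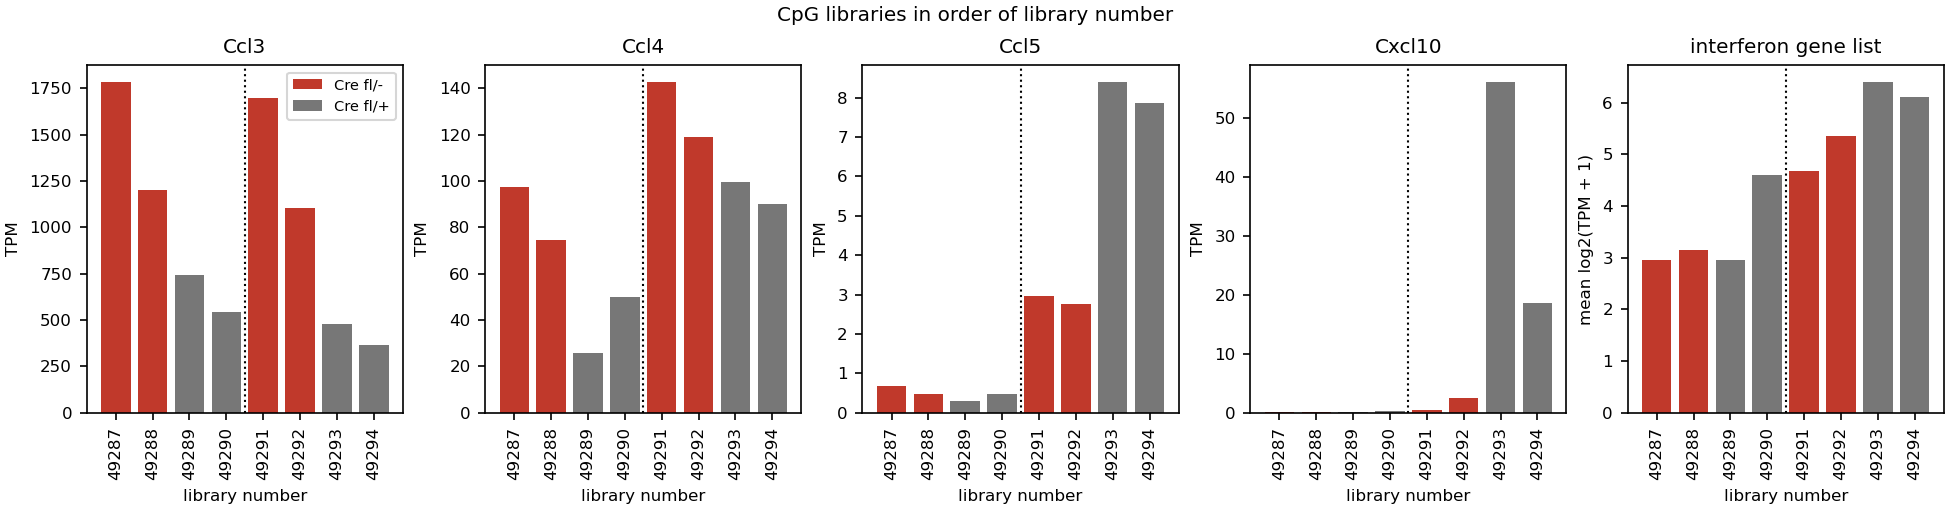
The 8 CpG libraries in order of library number, with bars for the TPM of Ccl3, Ccl4, Ccl5 and Cxcl10 and for the mean log2(TPM + 1) of the interferon gene list; red bars are Cre fl/-, grey bars Cre fl/+, and the dotted line parts the 2 runs. Ccl3 is higher in Cre fl/- cells in both runs, whereas Cxcl10 reaches 56.1 and 18.6 TPM only in the Cre fl/+ libraries of the second run.

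Outside the CpG cells Cxcl10 stayed low. It was at 1.06 and 2.28 TPM in naive Cre fl/- and 2.59 and 1.47 TPM in naive Cre fl/+ cells, and at 0.713, 0.509 and 0.449 TPM in the later naive controls. HEL-exposed fl/fl cells were at 3.43, 1.43, 2.15, 2.01 and 0.188 TPM and Cre fl/fl cells at 0.324, 1.06, 0.806, 1.06 and 1.21 TPM. The groups overlapped because of the fifth fl/fl library, and the difference of -0.49 ± 0.28 was not called (limma, adjusted p = 0.194). Without that library the difference was -0.77 and was called (adjusted p = 0.00657). The same library held the lowest mean of the interferon list among HEL-exposed fl/fl libraries, 4.32 against 5.42 to 6.15 in the other 4.

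Against naive controls, HEL-exposed fl/fl cells differed in Cxcl10 by 0.75 ± 0.34 (limma, adjusted p = 0.0919), and without the fifth fl/fl library by 1.03 (adjusted p = 0.00205). Anergic cells were at 0.255, 0.351 and 1.34 TPM and overlapped the naive controls. They differed from HEL-exposed fl/fl cells by -0.72 ± 0.37 (adjusted p = 0.137), and by -1.004 (adjusted p = 0.0149) without that library. Cxcl9, the other Cxcr3 ligand described here, was below 1 TPM in every library, with 0 to 8 reads and a highest value of 0.305 TPM, and it passed the level filter in no comparison. Without the filter it was called in none of the 7, the nearest being Ikaros loss in HEL-exposed cells (0.13, limma, adjusted p = 0.109; exact permutation p = 0.0476, or 0.286 adjusted over the 36 tests).

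Ccl22 was low everywhere, and it was higher in 2 settings without Ikaros. In HEL-exposed Cre fl/fl cells it was at 1.08, 1.43, 1.74, 0.567 and 2.20 TPM, from 15 to 36 reads. In HEL-exposed fl/fl cells it was at 0.102, 0.204, 0.551, 0.235 and 0.228 TPM, from 2 to 11 reads. The groups did not overlap, though the fourth Cre fl/fl library, at 0.567 TPM, came close to the highest control, at 0.551 TPM. That library kept Ccl22 out of the filtered test. The exact permutation test gave a difference of 0.90 and p = 0.00794, the smallest for 5 against 5, or 0.143 adjusted over the 36 tests. Without the level filter limma called it (0.90, adjusted p = 0.0043), which made 2 chemokines called, beside 23% of all genes.

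In naive cells Ccl22 was at 1.76 and 0.940 TPM in Cre fl/- and at 0.328 and 0.119 TPM in Cre fl/+ libraries. These groups did not overlap either, and the difference was 0.93, where 2 against 2 libraries cannot reach an exact p below 0.333. In naive cells none of the 3 chemokines tested was called, beside 0.0199% of all genes, which is 2 genes, and 896 at an unadjusted p under 0.05. In CpG cells Ccl22 was at 0.261, 0.141, 0.216 and 0.135 TPM in Cre fl/- and at 0, 0.204, 0.308 and 0.289 TPM in Cre fl/+ cells, from at most 4 reads, and the groups overlapped. The later naive controls were at 1.18, 1.42 and 0.409 TPM, and anergic cells at 0.541, 0.142 and 0.377 TPM. HEL-exposed fl/fl cells differed from these controls by -0.64 in the fit without the level filter (limma, adjusted p = 0.0293). The groups overlapped, and the exact permutation test gave p = 0.0714, or 0.367 adjusted over the 36 tests. With the filter Ccl22 was tested only once the third naive Cre fl/+ library, at 0.409 TPM, was left out. It then passed only through the 2 remaining naive libraries, where it is high. That difference of -0.87 therefore cannot serve as a test.

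The sum of dendritic cell markers, with Flt3 as its largest part, moved with Ccl22 in naive and in HEL-exposed cells. The summed TPM of 8 such markers was 16.7 to 24.3 in HEL-exposed Cre fl/fl and 4.64 to 8.06 in fl/fl cells, and 28.6 to 43.0 in naive Cre fl/- against 9.02 to 14.8 in naive Cre fl/+ cells. Flt3 alone was at 9.46 to 17.6 against 2.68 to 5.83 TPM in HEL-exposed cells. In naive cells Flt3 was at 23.9 to 39.5 against 7.14 to 13.1 TPM. Cd209a was also higher in naive Cre fl/- cells (1.56 to 2.23 against 0.320 to 0.580 TPM), but Itgax was not (0.336 to 0.373 against 0.374 to 0.709 TPM). Of the 4 tested in HEL-exposed cells all 4 were called higher without Ikaros, where 36.9% of all genes were called. Siglech and Cd209a passed the level filter only through the Cre fl/fl libraries, so passing it fixed their direction. Siglech, a lectin of plasmacytoid dendritic cells, was at 1.95 ± 0.56 against 0.0153 ± 0.0209 TPM (SD, n = 5 each), and Cd209a at 2.61 ± 0.64 against 0.290 ± 0.068 TPM. Zbtb46, a transcription factor of conventional dendritic cells, was at 2.04 ± 0.49 against 1.27 ± 0.35 TPM (limma, adjusted p = 0.0241). Clec9a, Xcr1 and Itgax, other markers of such cells, stayed at or below 0.458 TPM in both HEL groups. In CpG cells the sum was 30.0 to 39.3 in Cre fl/- and 13.03 to 27.9 TPM in Cre fl/+ cells, nearly all of it Flt3, and Ccl22 was at most 0.308 TPM there. The part of such cells in Ccl22 was not tested.

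**Figure D5:**
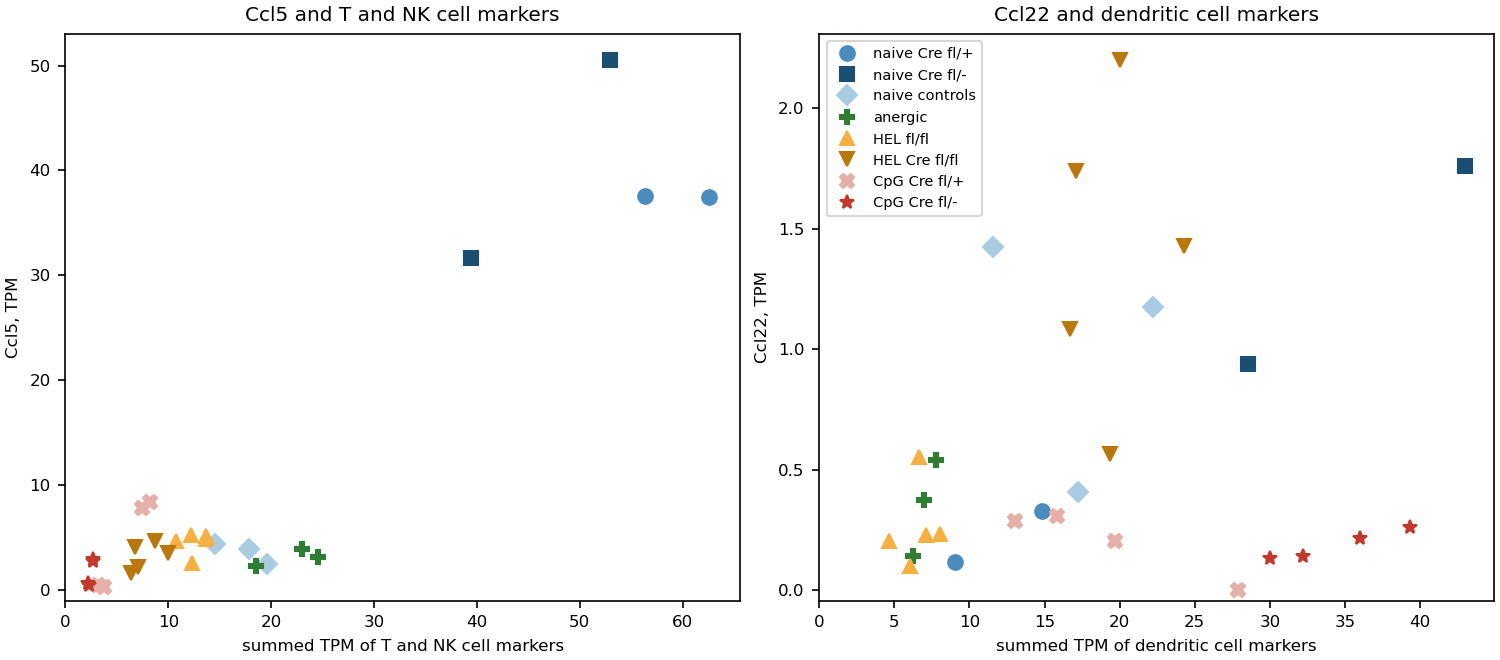
Left, Ccl5 in TPM against the summed TPM of 15 T and NK cell markers; right, Ccl22 in TPM against the summed TPM of 8 dendritic cell markers; each point is 1 of 28 libraries, with symbols for the groups. The 4 libraries of the first naive series lie apart on the left, and the CpG Cre fl/- libraries have the marker sum of 30.0 to 39.3 TPM with little Ccl22 on the right.

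As a share of all chemokine ligand mRNA, the 6 genes made up nearly everything in CpG-stimulated cells. Of the summed TPM of 35 chemokine ligand rows, in which Ccl19 stands in 2, they held 98.6% to 99.6% in Cre fl/+ and 99.3% to 99.6% in Cre fl/- cells. In the first naive series they held 86.0% to 87.9% in Cre fl/- and 86.0% to 87.6% in Cre fl/+ cells. In the later naive controls they held 43.3% to 54.5%, in anergic cells 56.8% to 74.8%, and in HEL-exposed cells 63.0% to 74.1% in fl/fl and 56.1% to 68.1% in Cre fl/fl cells. Of the 29 rows of other ligands only 1 to 5 passed the level filter in any comparison. Ccl6, a ligand of myeloid cells, was the 1 of 3 called for Ikaros loss in HEL-exposed cells, at 2.80 ± 0.36 against 1.83 ± 0.18 TPM. That count is near the share over all genes, 36.9%.

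The receptor genes Ccr1 and Cxcr3 rose without Ikaros in HEL-exposed cells. Ccr1, a receptor of Ccl3 and Ccl5, was at 21.2 ± 5.90 TPM in Cre fl/fl and 4.00 ± 0.34 TPM in fl/fl cells, a difference of 2.11 ± 0.15 (limma, adjusted p = 3.9e-07), beside a median of -0.08 over all genes. Cxcr3, the receptor of Cxcl9 and Cxcl10, was at 19.7 ± 8.44 against 8.25 ± 3.51 TPM (1.21 ± 0.33, adjusted p = 0.011). Ccr4, the receptor of Ccl22, stayed at or below 0.10 TPM in all libraries, and Ccr3 at or below 0.625 TPM.

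Both receptors were also higher after HEL in cells with Ikaros, in a comparison that shares the fl/fl libraries. Ccr1 was at 4.00 ± 0.34 TPM in HEL-exposed fl/fl cells against 0.647 ± 0.332 TPM in naive controls (limma, adjusted p = 1.9e-05), and Cxcr3 at 8.25 ± 3.51 against 2.91 ± 2.63 TPM (adjusted p = 0.034). This comparison called 48% of all genes. Ccr1 could not have passed its level filter without the HEL-exposed libraries, where it is high. In anergic cells Ccr1 was at 2.02 ± 1.41 TPM and was called lower than in HEL-exposed fl/fl cells. That comparison called 42.2% of all genes, and Ccr1 again needed the HEL-exposed libraries to pass the filter. In CpG cells Ccr1 was at most 0.109 TPM and Cxcr3 at most 1.87 TPM. The Ikaros effect there was called lower than in HEL-exposed cells for both, beside 22.4% of all genes called. Ccr1 passed the filter of that test only through HEL-exposed libraries. Its call thus restates the HEL difference beside CpG levels near the floor. The sum of myeloid markers, most of it Cd68, also moved with these receptors. It was 29.2 to 41.5 TPM in HEL-exposed Cre fl/fl and 10.7 to 16.4 TPM in fl/fl cells. Of that sum Cd68 was 21.8 to 29.6 against 5.64 to 10.3 TPM. Csf1r, the receptor of a macrophage growth factor, was also called higher, at 2.94 ± 0.88 against 0.430 ± 0.188 TPM (limma, adjusted p = 1.0e-05). It passed the level filter only through the Cre fl/fl libraries. Fcgr1 was at 0.21 to 0.52 against 0.03 to 0.14 TPM. Emr1 went the other way, at 0.127 to 0.275 against 0.287 to 0.511 TPM. So did Cd14, at 0 to 0.0558 against 0.0568 to 0.207 TPM. Mrc1 stayed at or below 0.17 TPM in both groups. The part of myeloid cells in the receptor levels was not tested.

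Several receptors with which follicular B cells find lymphoid tissue were lower without Ikaros. For Ikaros loss in HEL-exposed cells 3 of 6 other receptors were called lower and 1 higher, beside 36.9% of all genes called. With median-ratio scaling 2 were lower. Cxcr5, which guides B cells into follicles, was at 264 ± 26.2 against 413 ± 22.7 TPM, and Cxcr4 at 83.7 ± 52.5 against 191 ± 31.2 TPM. Ccr2 was the one called higher, at 3.57 ± 1.31 against 0.0508 ± 0.0737 TPM. It passed the level filter only through the Cre fl/fl libraries. In CpG cells 2 of 5 were lower and none higher, beside 14.9% of all genes called. Cxcr5 was at 54.7 ± 4.30 against 91.7 ± 12.2 TPM and Ccr7 at 156 ± 16.9 against 308 ± 61.5 TPM.

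Transcription regulators that antigen induces were counted beside Ccl4. In anergic against naive cells 9 of 13 were higher and none lower, with a median of 1.03 beside 0.07 over all genes, of which 7.37% were called. Egr3 was at 265 ± 34.5 against 16.0 ± 3.31 TPM and Nr4a3 at 10.9 ± 2.08 against 0.385 ± 0.110 TPM. Nr4a3 passed the level filter only through the anergic libraries, so passing it fixed its direction. In HEL-exposed fl/fl against naive cells 5 of 13 were higher and 2 lower, with a median of 0.21 beside -0.16 over all genes, of which 48% were called. In anergic against HEL-exposed fl/fl cells 11 of 13 were higher and none lower, with a median of 0.79 beside 0.23 over all genes, of which 42.2% were called. Over all genes the direction of calls turned on scaling. Anergic against HEL-exposed fl/fl cells gave 3860 genes higher and 565 lower, but 1073 and 1432 with median-ratio scaling, where 9 of the 13 regulators were higher and 1 lower. HEL-exposed fl/fl against naive cells gave 1036 higher and 3979 lower, but 2214 and 2004 with that scaling, and the regulators 7 and 1. Ikaros loss in HEL-exposed cells gave 1321 and 2469, but 1768 and 1708.

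Without Ikaros, HEL-exposed cells had 10 of 12 such regulators lower and none higher, with a median of -0.62, beside 36.9% of all genes called. With median-ratio scaling 8 were lower. Nr4a1 was at 6.82 ± 2.26 against 28.3 ± 8.66 TPM and Egr3 at 29.7 ± 12.2 against 65.4 ± 13.4 TPM. In CpG cells 5 of 12 were higher and 1 lower without Ikaros, beside 14.9% of all genes called. Nr4a3 was at 4.69 ± 1.48 against 0.745 ± 0.178 TPM and Egr1 at 25.8 ± 3.33 against 14.3 ± 2.04 TPM. Nr4a3 passed the level filter only through the Cre fl/- libraries, so passing it fixed its direction. The Ikaros effect was called higher in CpG than in HEL-exposed cells for 6 of 13 and lower for none, beside 22.4% of all genes called. The naive Cre fl/- library with the highest Ccl3 and Ccl4 of its series, 2.53 and 9.86 TPM, also had the highest sum of these regulators, 1191 TPM against 486 to 530 TPM in the other 3. Junb at 600 and Fos at 279 TPM made up most of that sum. Other regulators were lower in naive Cre fl/- than in Cre fl/+ libraries: Egr3 was at 5.67 to 13.2 against 14.3 to 38.9 TPM. Nr4a3 was at 0.0513 to 0.0531 against 0.252 to 1.03 TPM.

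NF-kB subunits and targets were counted beside Ccl3 and Ccl4. In CpG cells, where Ccl3 was higher without Ikaros, 8 of 20 were lower and none higher. Their median was -0.32 beside 0.02 over all genes, of which 14.9% were called. Tnfaip3, an inhibitor of NF-kB signalling that NF-kB itself induces, was at 33.5 ± 1.61 against 74.2 ± 13.99 TPM, and Traf1 at 32.5 ± 4.48 against 76.8 ± 20.4 TPM. In HEL-exposed cells, where Ccl4 was lower without Ikaros, 5 of 19 were higher and 4 lower, with a median of 0.0054 beside -0.08 over all genes, of which 36.9% were called. With median-ratio scaling 5 were higher and none lower. Nfkb2 was at 279 ± 31.2 against 202 ± 9.63 TPM there.

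Most interferon genes called after HEL exposure were higher, but not every library showed a rise. The list mean of the fifth HEL-exposed fl/fl library was 4.32, below the naive controls at 4.39 to 4.50. In HEL-exposed fl/fl against naive cells 17 of 28 were higher and 2 lower, with a median of 1.10 beside -0.16 over all genes, of which 48% were called. Gbp2 was at 26.4 ± 7.99 against 9.67 ± 0.78 TPM. Anergic cells had 16 of 28 lower and 2 higher than HEL-exposed fl/fl cells, where 42.2% of all genes were called. Isg15 was at 17.9 ± 9.65 against 170 ± 98.9 TPM. With median-ratio scaling these counts were 20 higher and 1 lower after HEL, and 18 lower and none higher in anergic cells. For Ikaros loss 3 of 28 were higher and 1 lower in HEL-exposed cells, beside 36.9% of all genes called. In CpG cells 1 of 28 was called, Irf8, which was lower, beside 14.9% of all genes called. The median was -0.85 over libraries that spread widely between runs.

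Across all 28 libraries each chemokine had a different closest pattern among 10523 genes, given here as a description since libraries of a group share their treatment and series. Ccl3 was most like Mdh2 (Pearson r = 0.994), Il33 (0.992) and Aprt (0.991), and its r with Ccl4 was 0.909. Ccl4 was most like Gsto1 (0.942), Ccnd2 (0.934) and Csnk2b (0.930). Ccl5 was most like Il2rb (0.884), Lyz2 (0.881) and Gzma (0.880), and Ccl22 most like Stxbp2 (0.837), Ppfia4 (0.810) and Cd209a (0.807). Cxcl10 was most like the interferon-stimulated genes Isg20 (0.874) and Rsad2 (0.857), followed by Chmp4b (0.827). Between the chemokines other than Ccl3 and Ccl4, r ran from -0.52 for Ccl4 with Ccl22 to 0.38 for Ccl5 with Cxcl10. Cxcl9 reached 1 TPM in no library and was not compared.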

How the data were processed

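RNA-seq was measured in 28 of the 40 samples in the labels, and the other samples (8 ATAC-seq, 4 ChIP-seq) are not analysed here. The authors deposited TPM values, 1 file per library. Per the submitters' processing notes, the build was mm9, and the tools named are featureCounts 1.5.0, TopHat 1.4.1, Bowtie, deepTools 3.0.1 and SAMtools 1.4. Their roles, annotation and strandedness are not given in the sources used here. Whole reads were recovered from TPM steps for 17368 of 17368 genes above 0 in 2 or more libraries (tolerance 0.01), and 1475 genes above 0 in 1 library were not solved. The files mark 3539 rows as overlapping another gene, none of them a member.

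Each comparison was fitted over all genes with limma 3.58.1 (R 4.3.3) on log2(TPM + 1), with a trend, two-sided tests and Benjamini-Hochberg adjustment, and calls were made at an adjusted p below 0.05. Genes needed 1 TPM or more in as many libraries as the smaller group, or in 4 libraries for the difference between the CpG and HEL effects. Single genes were also tested by exact permutation over libraries. The fit was tested on simulated data. Comparisons stayed within a library series (numbers beginning with 36, 49 or 57), except that the CpG and HEL effects, each from its own series, were compared. The 6 members, the gene lists and the tests were chosen with earlier results of these data known. Per list and comparison the text could name up to 4 called genes with the smallest adjusted p, or up to 2 with the highest TPM where none was called. Marker genes of other cell types, and Ikzf1, are given beyond this rule and were chosen after their values were seen. For each member the 3 genes with the highest r were named. Alternatives were a pseudocount of 0.1, no level filter, median-ratio scaling, voom on recovered reads, each library left out, the CpG run as a term or alone, and Cre as a term.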

Additional observations from a re-analysis of the deposited data

Results flagged for a closer look

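In HEL-exposed fl/fl cells the first library had the lowest Ccl5, 2.60 TPM, far from the other 4. In CpG Cre fl/- cells 1 library had a Cxcl10 of 2.56 TPM, far above the other 3, and in CpG Cre fl/+ cells 1 library had a Cxcl9 of 0, apart from the other 3, which held at most 1 read each. Chance marks about 1 in 20 groups in this way, and 24 groups were examined.

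The effect of Ikaros loss differed between CpG-stimulated and HEL-exposed cells by limma's interaction test for 3 chemokines: 1.28 for Ccl3, 1.57 for Ccl4 and -0.90 for Ccl22. Ccl22 entered this test only through HEL-exposed Cre fl/fl libraries, and Ccl3 could enter it only with the CpG libraries.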

How the results depend on the processing

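No paired analysis was possible because the labels give the libraries no replicate numbers. The count of chemokines called was 2 for Ikaros loss in HEL-exposed cells without the level filter, and 1 to 3 with each library left out. For CpG it was 2 with the run as a block, and, in fits chosen after seeing the data, 0 in the first run (library numbers 49287 to 49290) and 4 in the second (49291 to 49294), where 272 and 2388 of all genes were called. The 4 include Cxcl10, which needed its high Cre fl/+ libraries to pass the filter. Without the filter the count of chemokines called was 2 for anergic against naive and 3 for HEL against naive, the latter 1 to 2 with libraries left out. For anergic against HEL it was 1 with median-ratio scaling (Ccl5) and 0 to 1 with libraries left out. For the CpG minus HEL difference it was 0 with voom. Calls over all genes ran from 909 to 1907 for CpG, 323 to 1153 for anergic against naive and 2800 to 5292 for anergic against HEL with libraries left out, and the last was 2505 with median-ratio scaling and 2584 with voom. In naive loss 0 genes were called with a pseudocount of 0.1, without the filter or with any library left out, 17 with median-ratio scaling and 58 with voom. Leaving out 1 of 2 naive libraries leaves a group of 1, assumed to vary like the other group, so these fits say nothing about stability.

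Signs turned for differences that were not called. Leaving out libraries gave -0.23 to 2.00 for Ccl4, -0.24 to 0.42 for Ccl5 and -0.53 to 0.14 for Cxcl10 in naive loss, and -0.24 to 0.46 for Ccl4 in anergic against HEL, which was -0.040 with median-ratio scaling and -0.023 with voom. For Ccl5 in the CpG minus HEL difference the value was 0.036 with a pseudocount of 0.1 and -0.60 to 0.35 with libraries left out. The causes were not tested. Ccl4 in the 2 comparisons with naive cells and for Ikaros loss in HEL-exposed cells was called under every alternative run. Ccl3 for Ikaros loss in CpG cells was called under all but the first run alone. At 0 to 36 reads per library, smaller differences of Ccl22 and Cxcl9 were not detectable.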
